A study of Mus musculus with 8 samples.

Results

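Potassium channels let potassium leave or enter a cell and so set its resting potential, the shape and rate of its spikes and the recovery after them. Voltage-gated (Kv) subunits open on depolarization, calcium- and sodium-activated subunits open as these ions enter, inward rectifiers pass current best near rest, and tandem-pore-domain subunits leak at rest. In the hippocampus these genes are known for control of dendritic excitability, fast spiking of interneurons and potassium uptake by astrocytes. The genes described here are the 89 rows, of 46078 in a table of read counts, whose names begin with Kcn followed by the letters of a potassium channel subunit family and a number, names ending in os being left out. Of the 89, 86 were channel or auxiliary subunit genes, and 3 were RNAs that the same spelling picks up: Kcnq1ot1 and the antisense transcripts Kcnmb4os1 and Kcnmb4os2. Kcne1l, a protein-coding gene whose name goes on past its number, was kept with the auxiliary subunits.

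Hippocampal poly(A) RNA came from C57BL/6J mice of 9 weeks, in 4 wild-type (WT) libraries and 4 libraries of mice that carried the transgene Tg(Camk2a-cre)T29-1Stl (genotype Cre+/-, here Cre). In this transgene the Camk2a promoter, active mainly in excitatory neurons of the forebrain, drives Cre recombinase, and no floxed allele was named in the labels of either genotype. The series title names Syt2 as a transcript raised in a Cre line, and the comparison of the genotypes asks what else differed in carriers. Whether each library is a separate animal is not stated, so the p-values here reflect the spread among libraries, which may be technical. Because whole tissue was used, fewer cells of a type and less RNA per cell cannot be told apart.

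The libraries held 23358289 to 30882631 counts each, and these genes took 0.469% to 0.488% of them in 7 libraries and 0.432% in WT replicate 4. Markers of dentate granule cells (Prox1, C1ql2) and of pyramidal cells (Wfs1, Fibcd1) were present in every library. WT replicate 4 stood apart. Of the 15204 tested genes with an annotated length, 6.08% lay more than 0.5 log2 units below the mean of the other 3 WT libraries there, against 2.11% to 2.43% when the other WT libraries were compared in the same way. The summed level of 6 astrocyte markers was 3438 CPM (counts divided by the scaled total of the library) in WT replicate 4 and 4384 to 4575 CPM elsewhere. Most of that difference lay in 1 marker, Slc1a2, with 2166 CPM in WT replicate 4 and 3009 to 3153 CPM elsewhere. In all, 4 of the 6 markers (Slc1a2, Slc1a3, Aqp4, Gja1) were lowest there, while Aldh1l1 was highest there and Gfap was lowest in Cre replicate 4.

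A mean of 1 CPM or more over the 8 libraries was reached by 67 of the 89 genes, and 73 had enough counts to be tested between the genotypes. Kv pore subunits reached 1 CPM in 15 of 17 genes, silent Kv subunits in 9 of 10, the KCNQ genes in 4 of 5, the Kcnh genes in 7 of 8 and the calcium- or sodium-activated genes in 7 of 8. Inward rectifiers did so in 11 of 15 genes, tandem-pore-domain genes in 9 of 14 and auxiliary subunits in 3 of 9. Kcnh8, Kcnq1, Kcne4, Kcnmb1, Kcnj5 and Kcnk5 lay between 0.407 and 0.845 CPM and were still tested. The 16 that were not tested were Kcna7, Kcna10, Kcne1, Kcne2, Kcne3, Kcnmb3, Kcnj1, Kcnj13, Kcnj15, Kcnn4, Kcnv2, Kcnk7, Kcnk15, Kcnk16, Kcnk18 and Kcnmb4os1. Kcnj1, best known from the kidney, and Kcnk16, a channel of the pancreas, had 0 counts in all 8 libraries.

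The promoter sequences of 62 of the 86 channel and auxiliary genes were matched in RefSeq (GRCm38.p6), and the number of CG dinucleotides in the 250 bases before the most upstream start was counted as a feature that the gene names do not use. CG-rich promoters are known as a common feature of broadly expressed genes. The 44 genes at 1 CPM or more had a median of 11 CG dinucleotides, and 25 of them had 10 or more. The 18 genes below 1 CPM had a median of 5.5, and 3 of them had 10 or more. Over all 27025 genes with an entry the median was 6, and 38.2% had 10 or more. Each of the 7 matched Kcnh genes had between 14 and 21. These counts are a description of 1 window per gene and were not tested. The share over all genes was not split by level, so the difference is not shown to be particular to potassium channel genes. The 4 windows below, chosen after their values had been seen, show the pattern and its exceptions, with each CG in capitals and written 5′ to 3′ on the strand of the gene. Kcnj4 (35 CG, mean 93.8 CPM, minus strand, chr15:79505242-79505491) and Kcnj13 (3 CG, 0.207 CPM, minus strand, chr1:87394730-87394979) follow it. Kcnk1 (0 CG, 76.4 CPM, plus strand, chr8:125994852-125995101) and Kcnh8 (20 CG, 0.554 CPM, plus strand, chr17:52602459-52602708) do not.
Kcnj4: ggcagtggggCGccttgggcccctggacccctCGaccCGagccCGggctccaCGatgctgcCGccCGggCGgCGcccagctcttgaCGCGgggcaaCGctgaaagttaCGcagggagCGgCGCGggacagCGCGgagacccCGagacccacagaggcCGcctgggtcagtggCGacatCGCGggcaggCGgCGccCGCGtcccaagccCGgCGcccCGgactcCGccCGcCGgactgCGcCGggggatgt
Kcnj13: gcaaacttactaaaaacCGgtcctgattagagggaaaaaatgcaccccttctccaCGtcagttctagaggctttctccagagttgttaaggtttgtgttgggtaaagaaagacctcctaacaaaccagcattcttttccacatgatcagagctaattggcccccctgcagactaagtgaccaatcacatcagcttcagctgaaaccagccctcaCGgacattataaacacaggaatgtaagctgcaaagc
Kcnk1: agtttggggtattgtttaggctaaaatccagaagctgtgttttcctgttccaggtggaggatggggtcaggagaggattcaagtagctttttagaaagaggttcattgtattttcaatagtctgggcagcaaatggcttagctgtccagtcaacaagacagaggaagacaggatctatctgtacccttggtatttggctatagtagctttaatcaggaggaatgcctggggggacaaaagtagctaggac
Kcnh8: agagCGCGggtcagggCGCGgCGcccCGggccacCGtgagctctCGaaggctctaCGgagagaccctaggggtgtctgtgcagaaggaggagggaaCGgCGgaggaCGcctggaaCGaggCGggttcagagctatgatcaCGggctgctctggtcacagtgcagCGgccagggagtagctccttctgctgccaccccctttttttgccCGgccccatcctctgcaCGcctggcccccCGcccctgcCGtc

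Levels between genes are given as CPM per kb of the union of exons, as the mean ± SD of the 4 WT libraries. The potassium channel RNA of the hippocampus was spread over many families. Kv pore subunits made up 34.5% ± 0.833 (SD, n = 4) of the summed level of all members in WT and 34.6% ± 0.565 (SD, n = 4) in Cre. Inward rectifiers followed with 22.0% ± 0.337 in WT and 22.0% ± 1.25 in Cre. The KCNQ genes held 10.95% ± 0.845 in WT, silent Kv subunits 10.1% ± 0.264, tandem-pore-domain genes 9.20% ± 0.627, Kcnh genes 6.11% ± 0.466, calcium- or sodium-activated genes 4.47% ± 0.206 and auxiliary subunits 2.68% ± 0.284. Kcna1 and Kcnj4 were among the highest, with means that differed by less than the SD of either, so their order is not resolved. With the longest transcript as the length, 8 of the first 10 genes were the same. Single levels depend on that choice. The exon union is 7633 bases for Kcnj6, 7468 for Kcnn2 and 3324 for Kcnmb4. Their longest transcripts are 3627, 3682 and 1626 bases, so their levels per kb would be higher on that length.

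**Figure D1:**
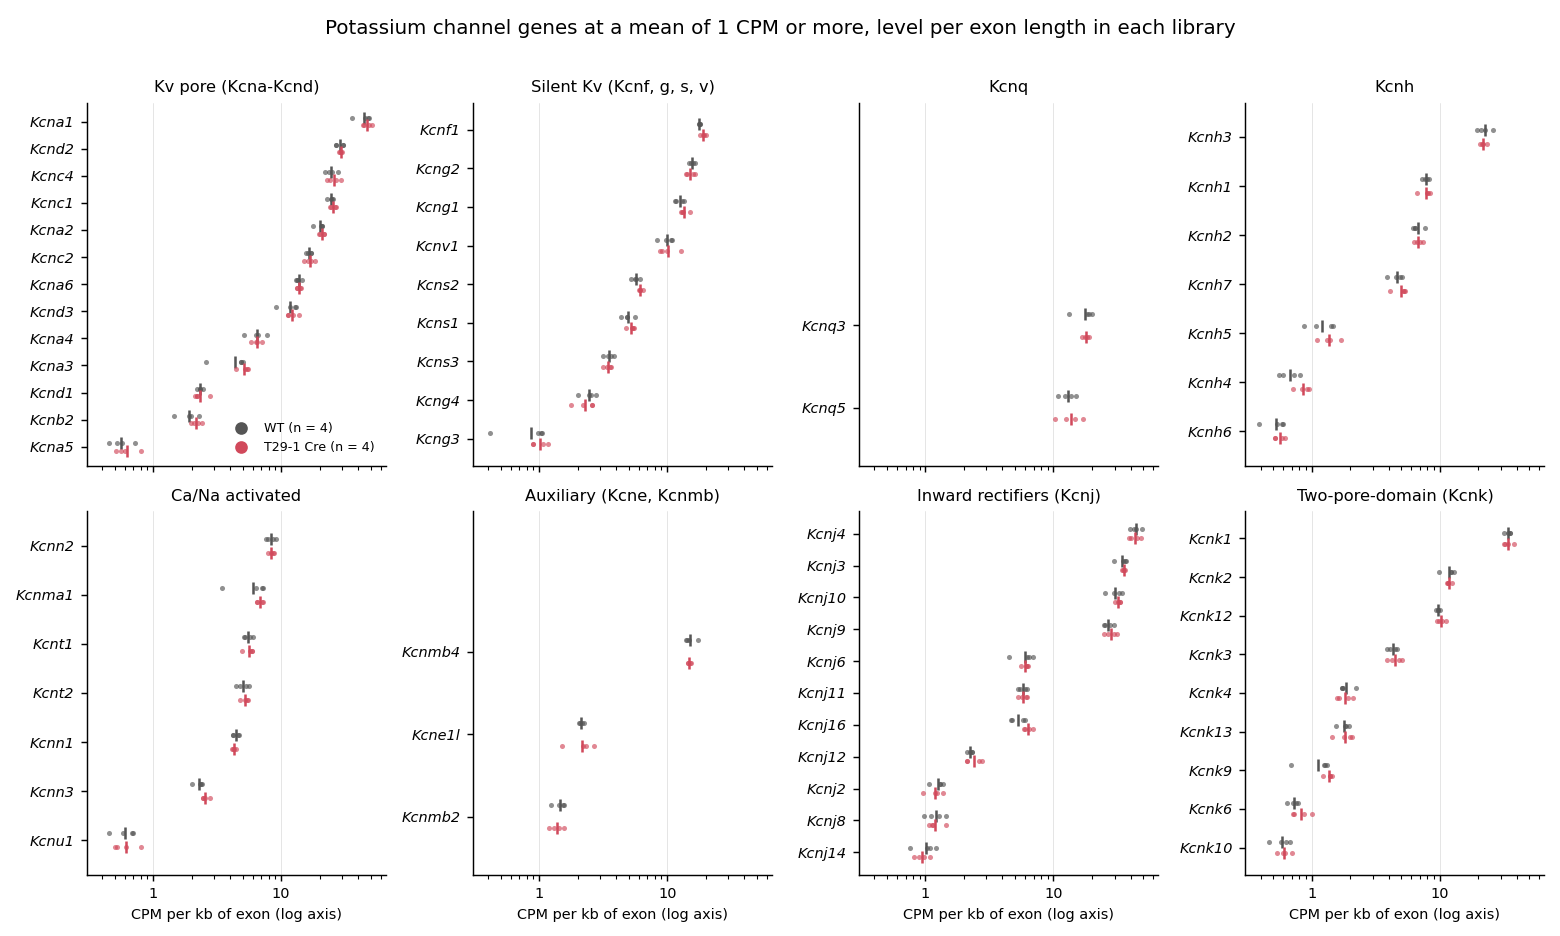
Level of 61 channel and auxiliary genes at mean CPM of 1 or more, in CPM per kb of exon on a log axis, with 1 panel per family. Points are single libraries (WT grey, Cre red, n = 4 each) and upright ticks are means; the WT means of Kcna1 (44.2) and Kcnj4 (43.9) lie above those of the other genes plotted.

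Among the Kv pore subunits, Kcna1, an axonal subunit that delays spiking, stood at 44.2 ± 5.68 CPM per kb (SD, n = 4). Kcnd2, the main A-type subunit of pyramidal cell dendrites, stood at 28.6 ± 1.97. Kcnc4 stood at 24.7 ± 2.54. Kcnc1 and Kcnc2, subunits of fast-spiking channels, stood at 24.5 ± 1.08 and 16.5 ± 0.732. Kcna2, which assembles with Kcna1 in axons, stood at 20.02 ± 1.6. Kcna5, better known from heart and vessels, read 0.567 ± 0.112. Several of these genes lie next to each other: Kcna5 (chr6:126532551-126535412), Kcna1 (chr6:126640397-126646384) and Kcna6 (chr6:126708329-126740674) form a cluster on the minus strand of chromosome 6, and their levels per kb were 0.567, 44.2 and 13.7. A second cluster on the plus strand of chromosome 3 holds Kcna3 (chr3:107036169-107038070), Kcna2 (chr3:107101146-107115005) and Kcna10 (chr3:107183056-107195721), at 4.35, 20.02 and 0.031 CPM per kb.

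The silent Kv subunits do not conduct on their own and are known to modify delayed rectifiers such as Kcnb2. Kcnf1 stood at 17.8 ± 0.151 CPM per kb, Kcng2 at 15.6 ± 0.729, Kcng1 at 12.5 ± 0.998 and Kcnv1 at 9.93 ± 1.15. Each was above Kcnb2 at 1.89 ± 0.337, and their ranges of ± 1 SD did not meet that of Kcnb2. Kcng3 was at 0.868 ± 0.306, and Kcnv2, known from photoreceptors, had 0 to 4 counts in each library.

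The KCNQ genes encode the M-current, which limits repetitive firing. Kcnq3, an M-channel subunit, stood at 17.6 ± 3.0 and Kcnq5, a relative, at 13.0 ± 1.70 CPM per kb. Kcnq1, the cardiac member, stayed below 1 CPM at 0.574 ± 0.143 CPM in WT. Of the Kcnh genes, Kcnh3, a forebrain ELK subunit, was first at 22.4 ± 2.8 CPM per kb. Kcnh1, an EAG subunit, followed at 7.82 ± 0.411, then the ERG subunits Kcnh2 at 6.72 ± 0.684 and Kcnh7 at 4.61 ± 0.523.

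Among the calcium- or sodium-activated genes, Kcnn2, the small-conductance subunit of pyramidal cells, stood at 8.37 ± 0.696 CPM per kb. Kcnma1, the large-conductance (BK) pore subunit, stood at 6.03 ± 1.75, and the sodium-activated Kcnt1 and Kcnt2 at 5.56 ± 0.441 and 5.02 ± 0.553. The coefficient of variation of Kcnma1 was 29.03% over the WT libraries, which include its low value in WT replicate 4, and 5.85% over the Cre libraries. Kcnmb4, the neuronal BK auxiliary subunit, was at 15.2 ± 1.53 CPM per kb, the only auxiliary gene above 3. Kcne1l was at 2.13 ± 0.0859 and Kcnmb2, an inactivating BK subunit, at 1.44 ± 0.153. Kcne4 and Kcnmb1, the BK subunit of smooth muscle, were below 1 CPM.

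The first inward rectifier was Kcnj4, a strong rectifier of forebrain neurons, at 43.9 ± 4.04 CPM per kb. The subunits of G protein-gated channels, which carry slow inhibition by GABA and adenosine, were uneven: Kcnj3 stood at 34.5 ± 3.29, Kcnj9 at 26.9 ± 2.36 and Kcnj6 at 6.02 ± 1.05, while Kcnj5, the atrial subunit, was at 0.470 ± 0.116 CPM. Kcnj10, the astrocytic channel of potassium uptake, stood at 30.5 ± 3.79 CPM per kb, and Kcnj16, a subunit that assembles with it, at 5.31 ± 0.676. Kcnj9 (chr1:172320501-172329318) and Kcnj10 (chr1:172341210-172374085) are neighbours on opposite strands. Kcnj11 and Kcnj8, pore subunits of ATP-sensitive channels, were at 5.75 ± 0.405 and 1.2 ± 0.211. Of the tandem-pore-domain genes, Kcnk1, a leak subunit of weak current, stood at 34.3 ± 1.76, the mechano- and lipid-sensitive Kcnk2 at 11.9 ± 1.33, Kcnk12 at 9.72 ± 0.265, and the acid-sensitive Kcnk3 and Kcnk9 at 4.30 ± 0.351 and 1.13 ± 0.298.

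Many of these genes share exonic bases with a transcript on the other strand, and no source used here states whether the counting used strand. Among the longest such overlaps were Kcna6 with Gm26673 (2355 bases), Kcnj3 with Gm26794 (1621), Kcnma1 with 4930519K11Rik (1016), Kcnh7 with Gca (696) and Kcnmb4 with Kcnmb4os2 (693). Kcnk4 shared 587 bases with Catsperz on the same strand. Levels of these genes are uncertain to that extent. Of the RNAs that are not channel genes, Kcnq1ot1, the imprinted antisense RNA of the Kcnq1 locus, had 38.7 ± 2.92 CPM in WT and 40.0 ± 2.31 CPM in Cre. Kcnmb4os2 had 3.45 ± 0.291 and 3.59 ± 0.484 CPM, and Kcnmb4os1 had at most 2 counts in a library.

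No potassium channel gene differed between WT and Cre past the threshold. With edgeR's quasi-likelihood test and Benjamini-Hochberg adjustment, 0 of the 73 tested genes had an adjusted p under 0.05, and the smallest adjusted p was 0.998. Over all 15996 genes tested the same rule called 0.00625%, which is 1 gene. DESeq2 and limma-voom also called 0 of the 73. At an unadjusted p under 0.05, edgeR gave 4 genes, all higher in Cre: Kcnj16, Kcnn3, Kcnf1 and Kcnh4. They are 5.48% of the 73, where 2.43% of all tested genes passed that level in either direction, 1.27% higher and 1.16% lower. DESeq2 gave 4 genes at that level (background 1.67%) and limma-voom 4 (background 2.41%). The 95% interval of the fold change lay within 1.5-fold either way for 63 of the 73 (82.7% over all genes), and for 54 of the 56 genes at a mean of 5 CPM or more (99.4% over all such genes). The exceptions among the 56 were Kcna3, with an interval of 0.924 to 1.504, and Kcnk9, with 0.960 to 1.506. Below 5 CPM, 9 of 17 genes met that limit, so the intervals of the rarer channels left room for larger changes.

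**Figure D2:**
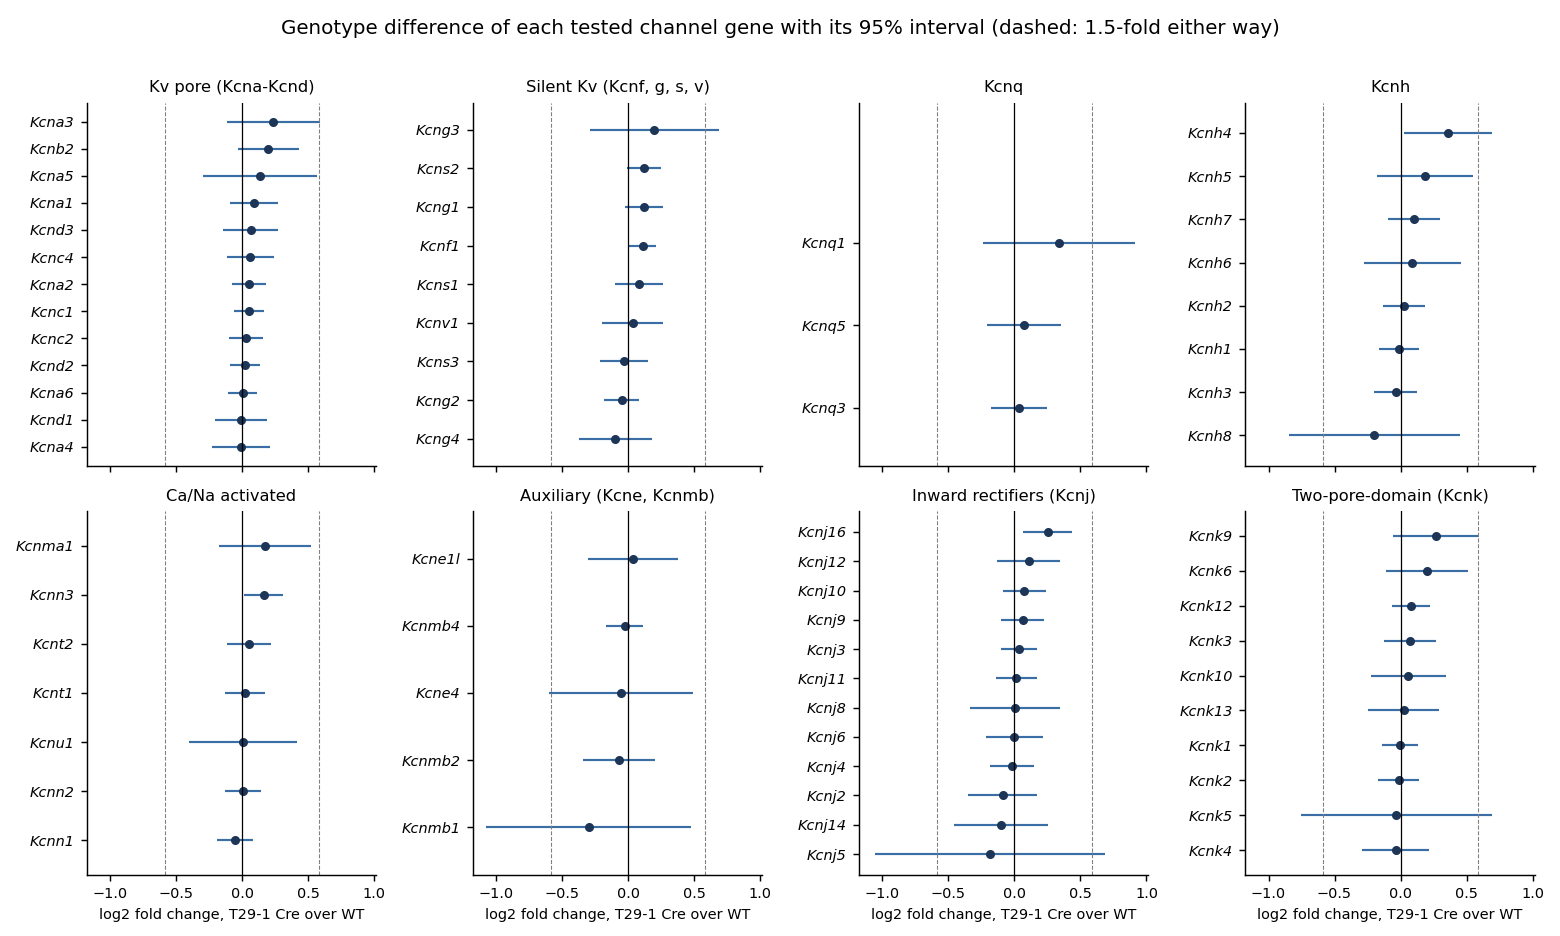
Log2 fold change of Cre over WT with its 95% interval for 67 tested channel and auxiliary genes, by family, from edgeR, with dashed lines at 1.5-fold either way. None is called, and the 4 genes at an unadjusted p under 0.05 (Kcnj16, Kcnn3, Kcnf1, Kcnh4) all lie above 0.

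Kcnj16 is an inward rectifier subunit that forms channels with Kcnj10. It lies on chromosome 11 (chr11:110968033-111027968) and is 1 of the 4 genes at an unadjusted p under 0.05. Its CPM was 18.5, 22.9, 23.5 and 18.7 in WT replicates 1 to 4 and 25.5, 23.8, 23.3 and 27.1 in Cre replicates 1 to 4. The Cre libraries were mostly higher, but the lowest of them lay just below the highest WT library, so the groups overlapped. The log2 fold change was 0.25 (SE 0.0867), with an edgeR p of 0.0116 and an adjusted p of 0.998. The exact two-sided permutation test over the 70 assignments gave p = 0.0571. Its unadjusted p stayed under 0.05 in 17 of 17 alternatives. Kcnj10 itself read 184, 176, 162 and 137 CPM in WT and 178, 181, 172 and 163 in Cre, a log2 fold change of 0.07 (SE 0.0759) and overlapping groups. Without WT replicate 4, in which the summed astrocyte markers were lowest, mostly through Slc1a2, and Aldh1l1 was highest, the log2 fold change was -0.0019 for Kcnj10 and 0.20 for Kcnj16. The part of astrocyte RNA in these values was not tested.

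Kcnn3 encodes a small-conductance calcium-activated subunit. Its CPM was 24.4, 24.8, 25.0 and 20.9 in the WT libraries and 25.6, 25.5, 26.5 and 28.9 in the Cre libraries. Each Cre library was above each WT library, with WT replicate 4 lowest and a gap of less than 1 CPM between the groups. The log2 fold change was 0.16 (SE 0.0699), with an edgeR p of 0.0358, an adjusted p of 0.998 and an exact permutation p of 0.0286, the smallest that 4 against 4 can give. Without WT replicate 4 it was 0.11 with an unadjusted p of 0.0806. For its relatives the log2 fold change was 0.01 (SE 0.0626) for Kcnn2 and -0.05 (SE 0.0632) for Kcnn1, and without WT replicate 4 it was -0.02 for each.

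Kcnf1, the silent subunit with the smallest spread between WT libraries, read 85.9, 85.7, 84.8 and 84.4 CPM in WT and 93.0, 91.8, 86.3 and 96.5 in Cre. The Cre libraries again lay above all WT libraries, Cre replicate 3 only narrowly. The log2 fold change was 0.11 (SE 0.0475), with an edgeR p of 0.0379, an adjusted p of 0.998 and an exact permutation p of 0.0286. Kcnh4, an ELK subunit at low level, read 2.36, 2.86, 2.22 and 3.22 CPM in WT and 3.32, 3.66, 3.79 and 2.81 in Cre. Cre replicate 4 lay within the WT range, so its groups overlapped. The log2 fold change was 0.36 (SE 0.156), with an edgeR p of 0.0383, an adjusted p of 0.998 and an exact permutation p of 0.0857. Unadjusted p stayed under 0.05 in 13 of 17 alternatives for Kcnn3, 11 for Kcnh4 and 8 for Kcnf1.

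**Figure D3:**
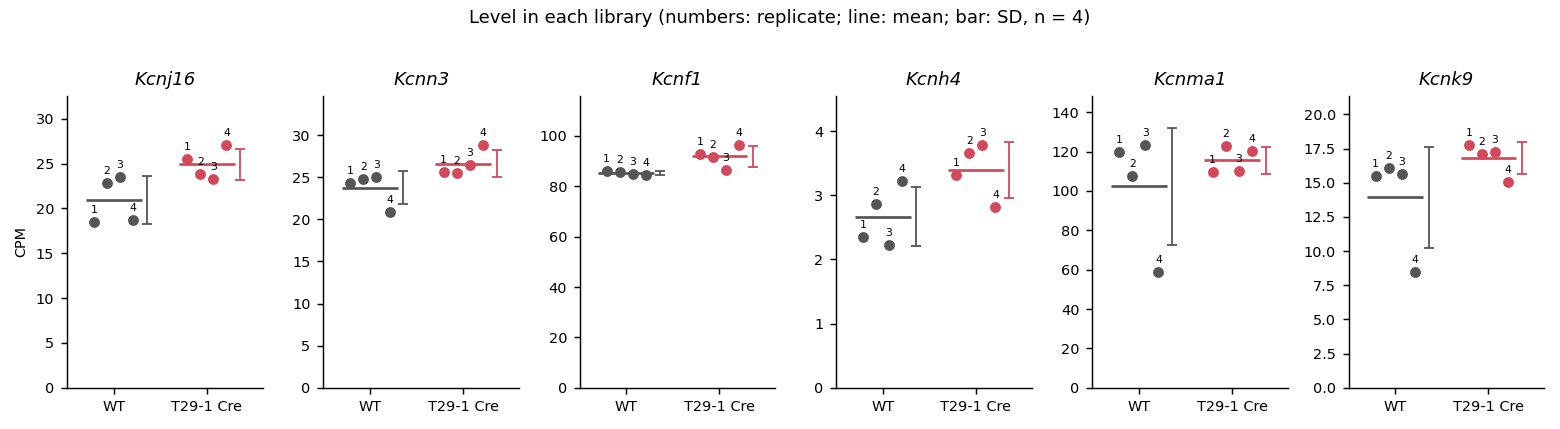
CPM of single members in each of the 4 WT and 4 Cre libraries, with the replicate number above each point, a line at the mean of each genotype and a bar for its SD (n = 4). Kcnn3 and Kcnf1 show no overlap between the genotypes, the other panels do, and WT replicate 4 is low for Kcnma1 and Kcnk9.

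Libraries did not overlap between the genotypes for 2 of the 73 genes, Kcnf1 and Kcnn3, both higher in Cre (2.74%), and for 0 lower in Cre. Over all tested genes the groups did not overlap for 1.81%, with 0.844% higher and 0.963% lower. The authors' deposited table lists 76 of the 89 genes, and in it 3 had an unadjusted p under 0.05. In the authors' deposited table the log2 fold changes and p-values were 0.25 and 0.00574 for Kcnj16, 0.36 and 0.0315 for Kcnh4, and 0.16 and 0.0357 for Kcnn3. That table has no adjusted values, and Benjamini-Hochberg adjustment computed from it gave 1 for every member.

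Across the families, small differences lay above 0 more often than below. The median log2 fold change of the 73 genes was 0.03 beside -0.00 for all genes, and 50 of the 73 (68.5%) lay above 0 beside 49.7% of all genes. By family, 12 of 15 Kv pore genes, 6 of 9 silent subunits, 5 of 5 KCNQ genes, 5 of 8 Kcnh genes, 6 of 7 calcium- or sodium-activated genes, 7 of 12 inward rectifiers and 6 of 10 tandem-pore-domain genes lay above 0. Auxiliary subunits did so in 1 of 5. Without WT replicate 4 these counts were 8 of 15 Kv pore, 5 of 9 silent, 2 of 5 KCNQ, 5 of 8 Kcnh, 3 of 7 calcium- or sodium-activated, 5 of 12 inward rectifier, 8 of 10 tandem-pore-domain and 2 of 5 auxiliary genes. In all, 40 of 73 (54.8%) then lay above 0, beside 48.8% of all genes, and the median was 0.02.

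The next genes by unadjusted p in their families were not called either. Kcns2, a silent subunit, was at a log2 fold change of 0.12 (SE 0.0591) and Kcnb2, a delayed rectifier, 0.20 (SE 0.106). Among the other families the values were 0.24 (SE 0.164) for Kcna3, the lymphocyte and microglial Kv subunit, 0.27 (SE 0.151) for Kcnk9 and 0.20 (SE 0.144) for Kcnk6. Without WT replicate 4 they were 0.06 for Kcna3, 0.09 for Kcnk9 and 0.09 for Kcnb2. Kcnh7 had 0.10 (SE 0.0906), with 0.03 without WT replicate 4 and 0.18 without Cre replicate 4. Kcnq1 had 0.34 (SE 0.268) and ranged from 0.18 to 0.47 with 1 library left out. The auxiliary genes Kcnmb1 and Kcnmb2 were on the other side of 0, at -0.30 (SE 0.360) and -0.07 (SE 0.127). With 1 library left out Kcnmb1 ranged from -0.67 to -0.06 (-0.49 without WT replicate 4) and Kcnmb2 from -0.14 to -0.0073. Leaving out WT replicate 4 brought Kcnj6 to -0.12 (unadjusted p 0.0412) and Kcng1 to 0.14 (unadjusted p 0.0482), neither of which was called (adjusted p 1.00 for each with edgeR).

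Of 30 genes that act with these channels, 28 were tested and 0 were called, with 15 above 0, 13 below and a median log2 fold change of 0.01. The list holds cytoplasmic beta and KChIP subunits, Dpp6 and Dpp10, sulfonylurea receptors, Lrrc subunits of BK channels, scaffolds of Kv channels, calmodulins and the Hcn genes. Dpp10, a partner of Kcnd channels, had 47.9 ± 3.4 CPM in WT and 53.9 ± 1.91 in Cre (SD, n = 4), with a log2 fold change of 0.17 (SE 0.0575) and an unadjusted edgeR p of 0.0111. Kcnip2, a KChIP that binds the same channels, had 215 ± 9.49 and 198 ± 11.1 CPM, with a log2 fold change of -0.12 (SE 0.0524) and an unadjusted edgeR p of 0.0444. These partners pointed in opposite directions, both had overlapping libraries, and the pore subunits Kcnd2 and Kcnd3 had 0.03 (SE 0.0528) and 0.07 (SE 0.0976), or -0.0017 and -0.03 without WT replicate 4. Lrrc26, a BK subunit of secretory epithelia, had 0 counts in all libraries.

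Summed over all families, potassium channel RNA was lowest in WT replicate 4, most of all for genes with long transcripts, but not every family was low. The summed level of the Kcnh genes was highest there, at 47.3 CPM per kb against 41.8 to 46.1 elsewhere. Auxiliary subunits were also highest there, at 21.6 against 18.2 to 19.5. The level there was more than 0.5 log2 units below the mean of the other 3 WT libraries for 11 of the 73 genes (15.1%), beside 6.08% of all genes. WT replicate 4 was the lowest of the 8 libraries for 27 genes (37.0%, beside 27.2% of all genes). It was the highest for 12, for which no share over all genes was computed. Kcnma1 had the largest such difference, -0.98, of the genes above 5 CPM. Its CPM was 120, 107, 124 and 59.0 in WT replicates 1 to 4 and 110, 123, 110 and 120 in Cre. The 7 other libraries lay close together, and the log2 fold change moved from 0.17 (SE 0.162) to -0.02 (SE 0.0548) without WT replicate 4. Kcnk9 read 15.5, 16.1, 15.7 and 8.44 CPM in WT and 17.8, 17.1, 17.3 and 15.1 in Cre, again with 1 library far below the rest. Kcng3, with a difference of -1.27 in WT replicate 4, Kcnmb1 with -0.95 and Kcna3 with -0.92 were the others near or past 1 log2 unit. The 37 genes with the longer transcripts had a median difference of -0.24 in that library, and the 36 with the shorter ones had 0.07. Over the 73 genes Spearman's rho between this difference and the length of the longest transcript was -0.513, and with its GC content 0.482. Over all genes with a length the values were -0.450 and 0.352. All points share that 1 library, so these are descriptions with no p. The part of transcript length, GC content or RNA quality in the difference was not tested.

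**Figure D4:**
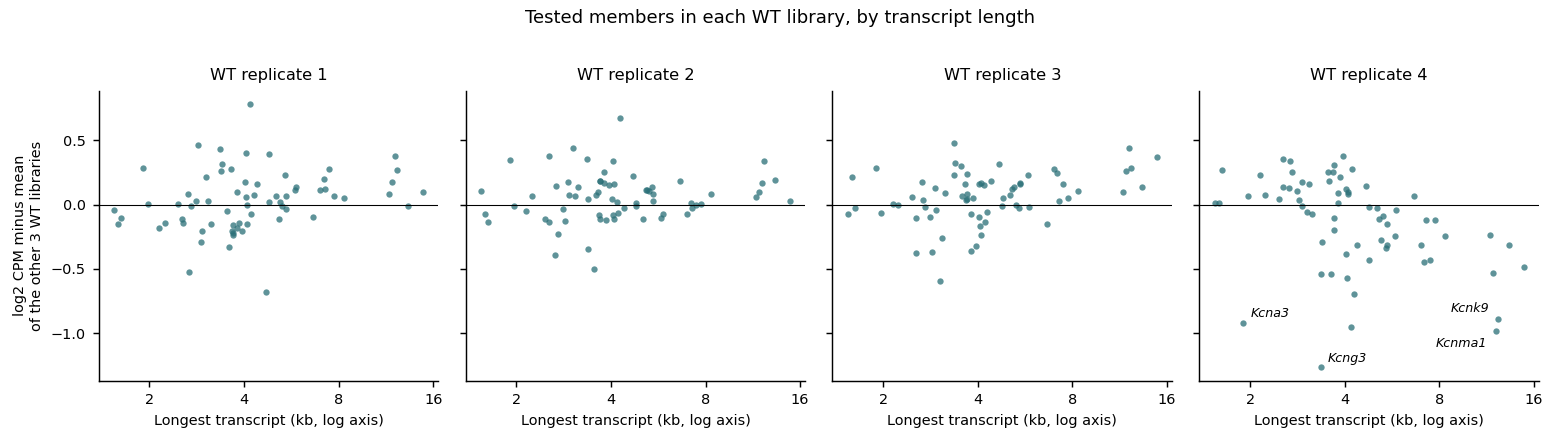
Log2 CPM of tested members in 1 WT library minus the mean of the other 3, against the longest transcript in kb on a log axis, with 1 panel per WT replicate; Kcnq1ot1, which is far longer, is left out. In replicate 4 most long transcripts lie below 0, with Kcnma1 and Kcnk9 near -1, and Kcng3 and Kcna3 are low among the shorter ones.

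Among the genes tested, those with the largest coefficients of variation within a genotype were rare: Kcnj5 (61.3% in Cre), Kcnmb1 (46.5% in Cre), Kcnk5 (35.4% in Cre), Kcnh8 (32.7% in WT) and Kcne4 (31.6% in Cre), along with Kcng3 (35.2% in WT). The median over the 73 genes was 10.6% in WT and 8.46% in Cre, beside 8.97% and 6.47% over all genes. Cre replicate 4 differed from the other Cre libraries for several genes. There Kcnq5 read 132 CPM (78.4 to 114 in the others), Kcnv1 58.3 (40.5 to 46.0) and Kcnd3 133 (109 to 118), and Kcnh7 read 62.4 (78.4 to 81.2). The summed level of 4 dentate granule cell markers was lowest in that library at 395 CPM, against 430 to 496 CPM in the other 7. Of these markers C1ql2 (82.6 CPM) and Calb1 (121 CPM) were lowest there, while Prox1 and Dock10 were lowest in WT replicate 4. Wfs1, a marker of pyramidal cells, was also lowest in Cre replicate 4, at 90.2 CPM against 132 to 175 CPM. The other listed pyramidal markers were not lowest there. Grik4 (85.2 CPM) and Slc17a7 (1885 CPM) were highest in that library, and Fibcd1 and Nr3c2 were neither lowest nor highest. The part of cell makeup in these values was not tested.

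Kcnj13 and Kcne2 are known from the choroid plexus, the epithelium that makes cerebrospinal fluid and borders the hippocampus. Kcnj13 had 2, 1, 4 and 6 counts in the WT libraries and 9, 3, 17 and 2 in the Cre libraries, and Kcne2 had 0, 0, 3 and 2 against 0, 1, 10 and 3. Both were highest in Cre replicate 3 and too rare to be tested. The summed level of 7 choroid plexus markers was 52.5 CPM in Cre replicate 3 and 22.0 to 36.3 CPM in the other libraries. Kl, 1 of the 7 markers, read 19.8 to 22.5 CPM across the libraries. Most of the difference lay in Ttr, the most abundant transcript of that tissue. Ttr read 26.9 CPM in Cre replicate 3 and 1.08 to 11.5 CPM elsewhere. Clic6, Aqp1 and Slc4a5 were also highest in Cre replicate 3, at 1.37, 0.830 and 0.433 CPM, while Kl and Otx2 were highest in Cre replicate 2. Folr1 was rare, at 0.374, 0, 0.359 and 0 CPM in WT and 0.0378, 0.344, 0.397 and 0.187 CPM in Cre. Its value in Cre replicate 3 was the highest only narrowly. Kcnj13 also shares 623 exonic bases with Gigyf2 on the other strand. The part of choroid plexus RNA in these counts was not tested.

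**Figure D5:**
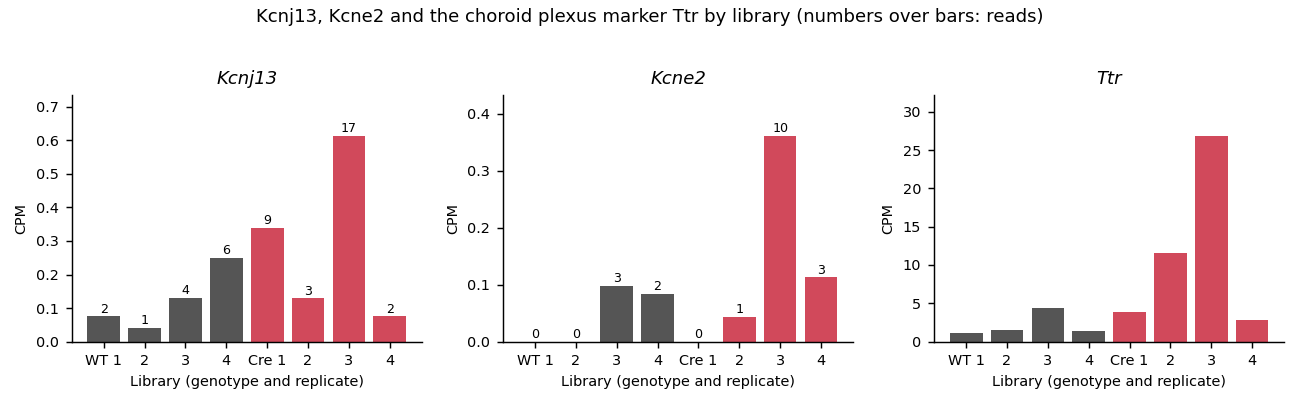
CPM of Kcnj13, Kcne2 and the choroid plexus transcript Ttr as bars for each of the 8 libraries (WT grey, Cre red), with the read counts of the 2 channel genes above the bars. Cre replicate 3 has the most counts of both genes (17 and 10) and the highest level of Ttr (26.9 CPM).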

How the data were processed

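Poly(A) RNA-seq of 4 WT and 4 Cre hippocampus libraries was analysed from the authors' deposited read counts by gene name, which are whole and unscaled. Per the labels' protocols, libraries came from a directional kit, were pooled on 1 lane and read as pairs. Reads were mapped to GRCm38, and the tools named are STAR 2.6.1d, featureCounts and edgeR 3.11, per the submitters' processing notes. Neither the annotation release nor the handling of strand and of reads with several places is given in these sources. A second table, the authors' deposited comparison, holds log2 fold changes, a signed fold change (a score), CPM, log2 CPM and unadjusted p-values, and is used only where named.

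Counts were fitted in R 4.3.3 with edgeR 4.0.16 (filterByExpr with its minimum count 10 and total 15, TMM, glmQLFit and glmQLFTest with no covariate). This left 15996 genes, over which p-values were adjusted by Benjamini-Hochberg, and a gene was called at an adjusted p under 0.05. Libraries held 23358289 to 30882631 counts, and their number and counting error limit the precision. CPM used the TMM-scaled totals. Lengths and positions came from GENCODE M21 on GRCm38, matched by name for 95.2% of tested genes. Alternatives were DESeq2 1.42.0, limma-voom (limma 3.58.1), robust edgeR, 3 scalings, 2 filters, a replicate block and each library left out. For single genes, log2 CPM was compared by exact permutation over the libraries, two-sided. Pairs of libraries of a genotype differed by more than counting noise, with chi-square over its degrees of freedom between 3.32 and 19.2.

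The genes and the lists were chosen with earlier results of these data known. Genes named were, per family, the 3 highest per kb, the 2 with the smallest p, those at an unadjusted p under 0.05 or without overlap, those not tested, those with a library far from the other 3, and the 6 with the largest coefficients of variation. Some genes that this rule names are not reported here. The calculations were tested on simulated data.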

Additional observations from a re-analysis of the deposited data

Results flagged for a closer look

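In 9 of 138 groups of 4 libraries examined, 1 library lay far from the other 3 (a gap over the range above Dixon's 95% limit), where chance gives about 1 in 20 groups. WT replicate 4 was that library in 7 groups. It was low for Kcna2 (210.0 CPM, others 245 to 250), Kcna3 (4.93 CPM, others 9.28 to 9.60), Kcnn3 (20.9 CPM, others 24.4 to 25.0), Kcng3 (1.38 CPM, others 3.31 to 3.53) and Kcnk9 (8.44 CPM, others 15.5 to 16.1). It was high for Kcnh2 (37.5 CPM, others 30.3 to 31.3) and Kcnk4 (9.90 CPM, others 7.66 to 7.80), the latter of which shares exonic bases with Catsperz. Cre replicate 4 was that library in the other 2 groups, low for Kcnh7 (62.4 CPM, others 78.4 to 81.2) and high for Kcnd1 (14.6 CPM, others 11.2 to 11.7).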

How the results depend on the processing

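The number of called genes was 0 in all 17 alternatives, and 67 genes reached a mean of 1 CPM in each alternative tried for it. The number at an unadjusted p under 0.05 was 3 to 6 under the other tools, scalings and filters, and ranged from 2 to 5 when 1 library was left out (2 without WT replicate 1 and without each of Cre replicates 1, 2 and 3). The 5 without WT replicate 3 stand beside 4.20% of all genes, and the 5 without WT replicate 4 beside 2.87%. The settings that gave 2 stand beside 1.78% to 2.56%. With no filter it was 6 of 87 tested genes (3.01% of all genes), among them Kcnj13 (log2 fold change 1.23, unadjusted edgeR p 0.0482, adjusted p 0.892). With the filter, the 3 choroid plexus markers that were tested had 2.39 (Ttr), 0.89 (Clic6) and 0.07 (Kl). The number of genes with no overlap between the groups was 1 with upper quartile scaling. With 1 library left out it ranged from 2 to 7, with 5 without WT replicate 3 and 7 without Cre replicate 4. Beside these stand 884 and 754 of the same 15996 genes, where all libraries gave 289 of 15996. Single log2 fold changes turned sign for Kcnma1 (-0.017) and Kcnj10 (-0.0019) without WT replicate 4 and for Kcnmb4os2 (-0.037) without Cre replicate 4. With 1 library left out they ranged from -0.017 to 0.28 for Kcnma1, -0.0019 to 0.13 for Kcnj10 and -0.037 to 0.11 for Kcnmb4os2. The cause was not tested. With the replicate number as a block, 0 potassium channel genes were called and 4 had an unadjusted p under 0.05 (Kcnb2, Kcnj16, Kcnk9 and Kcna3). Over all genes, 2 were then called and 2.45% had an unadjusted p under 0.05. Deviations of same-numbered libraries correlated at -0.073, 0.054, 0.018 and -0.034, so the numbers were not taken to pair the libraries. The 16 untested genes had at most 17 counts in a library, too few to test at this depth.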
